A study of Rattus norvegicus with 4 samples.

Results

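A list of 10 heat shock genes was followed in rat macrophages that had been exposed to metal oxide particles. The genes were chosen by name for their known roles, with earlier results of these data known. The list held the cytosolic chaperones Hspa8, Hspa1a, Hsph1, Dnaja1, Hsp90aa1, Hsp90ab1 and Hspb1, and the mitochondrial chaperonin pair Hspd1 and Hspe1. It also held Hsf1, the transcription factor that switches heat shock genes on. The genes were found by matching the RefSeq accession of each array probe to the gene symbols of the rat assembly GRCr8. All 10 were measured, by 20 probes in 57 spots per array, among 16581 genes with a symbol. The cells were NR8383, a macrophage line started from the lung washings of a normal rat, at 20 passages, seeded 48 h earlier and given NiZnFe2O4 particles at 9.25 µg/mL, with RNA taken after 4 h. There were 4 biological replicates with 1 one-colour Agilent array each, and these form 1 group. The study design also names untreated control cells, and their arrays were not used here. The values therefore describe what the exposed cells held, and none of them measures a response to the particles.

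Heat shock proteins keep other proteins folded. HSP70 proteins bind unfolded stretches and release them on a cycle of ATP, J-domain proteins deliver the clients and start that cycle, and HSP110 proteins reset it by exchanging the nucleotide. HSP90 takes over signalling proteins at a late stage of folding. In mitochondria, HSP60 and its lid HSP10 enclose proteins in a folding chamber. Some of these genes are expressed all the time and others are nearly silent until unfolded protein frees HSF1, which then binds heat shock elements, short inverted repeats of GAA, in their promoters.

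Most of these chaperone genes gave clear signals in the exposed macrophages, among them the constitutive Hspa8, Hsp90ab1, Hspd1 and Hspe1 and also the stress-responsive Hsp90aa1, while the stress-inducible Hspa1a and Hsph1 were not well above background. A gene was counted when at least 1 of its probes carried the scanner software's flag for a signal well above background on all 4 arrays. That held for 7 of the 10 genes (Hspa8, Hsp90aa1, Hsp90ab1, Dnaja1, Hspd1, Hspe1 and Hsf1), against 38.7% of all genes with a symbol. Hspb1, a small heat shock protein, passed on 2 of 4 arrays, and Hspa1a and Hsph1 passed on none. No test was made of these counts. Levels below are the log2 processed signal minus the 75th percentile of all probes on the same array, so that 0 is a probe at that percentile. Signals depend on the probe's sequence, so levels of different probes are not compared.

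**Figure D1:**
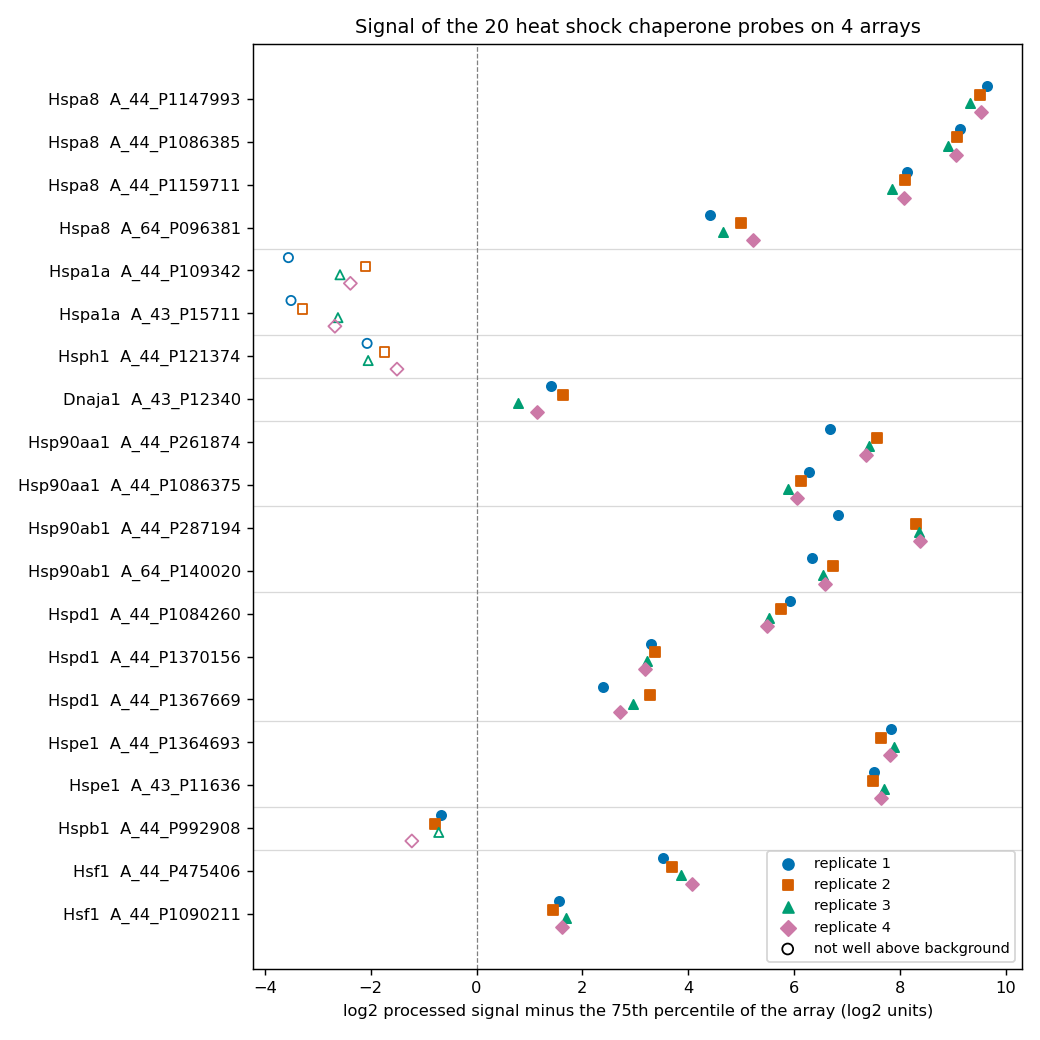
Level of each of the 20 probes (rows, grouped by gene) on the 4 arrays, in log2 units relative to the 75th percentile of the array (dashed line), with a symbol and colour for each replicate; filled symbols are well above background and open symbols are not. The 2 Hspa1a probes and the Hsph1 probe are open on all 4 arrays, and the Hspb1 probe is open on replicates 3 and 4.

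The arrays shared 1 slide and 1 scan time. The scanner software's quality summary put replicates 1 and 3 in range and marked replicates 2 and 4 for evaluation. Outlier spots numbered 511, 828, 491 and 702 on replicates 1 to 4. Of 58717 spots for rat transcripts per array, between 21812 and 24981 were well above background and none was saturated. Replicate 1 was the brightest array, with a 75th percentile over probes of 5.38 on the log2 scale, against 4.55 to 5.03 on the others. The labelled cell type was checked with markers: 11 of 12 macrophage genes passed the same criterion, among them Cd68, Lyz2 and Csf1r, while Adgre1 passed on none. None of 6 lung epithelial genes, of 3 neutrophil genes or of 4 hepatocyte and neuron genes passed on all 4. Dcn of 4 fibroblast genes, Lck of 4 lymphocyte genes and 3 of 4 endothelial genes, Cdh5, Vwf and Pecam1, passed, and their part in the chaperone values was not tested. The labels call the replicates biological without naming the cultures, so the SDs describe the spread between these arrays.

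The promoters of these genes were read next, because HSF1 acts on heat shock genes through the elements it binds there. A match of letters does not by itself show that a gene is heat-inducible, and binding of HSF1 was not measured. Windows of 300 bases, from 250 before to 50 after an annotated start, were taken from RefSeq for GRCr8. Some genes had several windows, 33469 for 27457 genes in all. Of the 10 genes 8 were matched (all except Hsp90aa1 and Hsf1), with 1 window and so 1 start each. For 6 of the 8 that start is the 5′ end of the gene's annotated span. For Hspd1 and Hsp90ab1 it lies inside the span, by 295 and 174 bases. The Hspd1 window therefore does not reach the region before the outermost start. The Hsp90ab1 window begins at base 22930173, before the outermost start at 22930249, and shows only the nearest part of that region. The letters GAANNTTC or TTCNNGAA are inverted repeats of 2 units and read the same on both strands. They were found in 6 of these 8 windows, against 15.9% of all 33469 windows and 16 of 65 windows (24.6%) of other chaperone genes. The longer forms GAANNTTCNNGAA and TTCNNGAANNTTC, 3 alternating units and each the reverse complement of the other, were found in 5 of 8 windows, against 0.798% of all windows and in 2 of 65 windows of other chaperone genes. The 2-unit letters lie within the longer ones and overlap them. The Hspd1 and Hspe1 windows overlap and hold the same element, which is counted in both windows. The genes were chosen as heat shock genes, so these shares are a description. The stretches below carry the matches in capitals, each 5′ to 3′ on the gene's own strand with up to 16 bases on either side. They are shown because the letters occur both beside genes well above background on all 4 arrays and beside Hsph1 and Hspb1, which were not. Hsph1 and Hspb1 had 1 probe each, so a weak probe cannot be told from a low transcript.
Hspa8, chr8:50080443-50080487, plus strand: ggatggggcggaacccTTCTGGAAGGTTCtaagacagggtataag
Hspa8, chr8:50080285-50080329, plus strand: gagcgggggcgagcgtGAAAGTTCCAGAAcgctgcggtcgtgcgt
Hsph1, chr12:10427316-10427360, plus strand: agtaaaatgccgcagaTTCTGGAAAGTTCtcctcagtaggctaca
Hsph1, chr12:10427247-10427286, plus strand: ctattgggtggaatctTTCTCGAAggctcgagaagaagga
Dnaja1, chr5:60638397-60638441, plus strand: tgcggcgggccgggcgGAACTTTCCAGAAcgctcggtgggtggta
Dnaja1, chr5:60638207-60638246, plus strand: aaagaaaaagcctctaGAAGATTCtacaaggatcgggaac
Hspb1, chr12:26432387-26432446, minus strand: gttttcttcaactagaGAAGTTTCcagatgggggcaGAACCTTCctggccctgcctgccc
Hspd1, chr9:64084246-64084287, minus strand: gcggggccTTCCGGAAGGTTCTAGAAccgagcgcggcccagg
Hspe1, chr9:64084246-64084295, plus strand: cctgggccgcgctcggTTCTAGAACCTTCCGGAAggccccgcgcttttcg

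Positions are counted in bases from the start each window is set on, negative upstream. Hspa8 had a 3-unit match at -55 to -43 and another at -213 to -201. Hsph1 had one at -36 to -24, and Dnaja1 had one at 10 to 22, within the transcript. Hspb1 had a pair of 2-unit matches and no longer one. The windows of Hspa1a and Hsp90ab1 held none of these letters, which says nothing about the sequence outside the windows. The Hspa1a window is set on base 3859756 of chromosome 20, inside the annotated span of the neighbouring gene Hspa1l (3853496 to 3860223). Other possible starts of Hspa1a were not examined, so this window may not show its heat-inducible promoter.

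Hspd1 and Hspe1 lie head to head on chromosome 9 and run in opposite directions, and their annotated spans overlap by 6 bases at their 5′ ends. The Hspd1 window is set on an internal start, 290 bases from the Hspe1 start, and the windows overlap by 211 bases. The match in that overlap is 1 element of 4 alternating units and 18 bases, at chr9:64084262-64084279, read from both strands. It lies at -65 to -48 from the Hspe1 start and at -242 to -225 from that internal Hspd1 start, which places it inside the annotated span of Hspd1. The whole Hspe1 window, on the plus strand of chr9:64084077-64084376, shows the element in its surroundings.
Hspe1 window: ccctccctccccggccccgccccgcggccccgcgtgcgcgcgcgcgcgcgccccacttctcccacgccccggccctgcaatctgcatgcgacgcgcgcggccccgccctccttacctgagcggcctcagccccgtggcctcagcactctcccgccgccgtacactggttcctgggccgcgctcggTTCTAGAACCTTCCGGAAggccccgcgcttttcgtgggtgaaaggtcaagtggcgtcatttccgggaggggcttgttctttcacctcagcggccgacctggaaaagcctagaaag

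**Figure D2:**
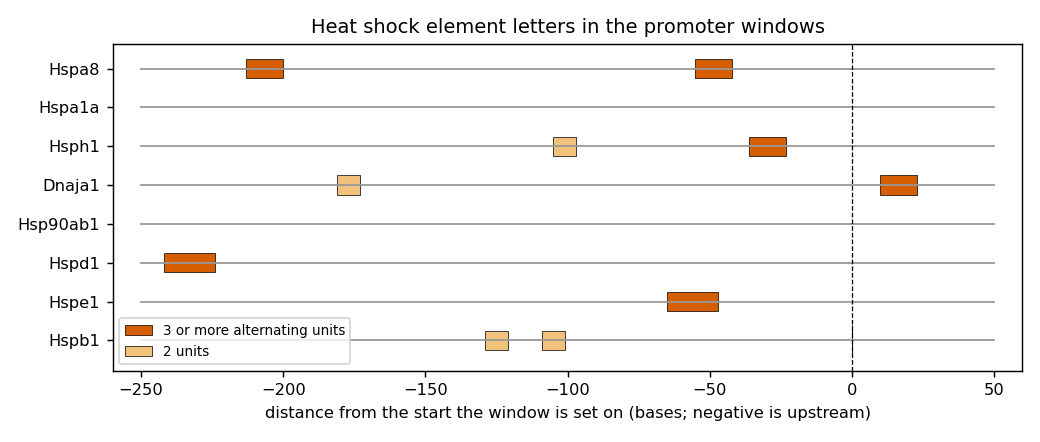
Position of the matched letters in the 8 promoter windows, in bases from the start each window is set on (dashed line; internal to the gene for Hspd1 and Hsp90ab1); dark orange bars hold 3 or more alternating units and light orange bars 2. Hspa8, Hsph1, Dnaja1, Hspd1 and Hspe1 have a dark bar, Hspb1 has light bars only, and Hspa1a and Hsp90ab1 have none.

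The HSP70 genes divided into one with a high signal and one at the floor. Hspa8, which encodes the constitutive HSC70, was measured by 4 probes, all well above background on all 4 arrays. Its probe with the highest signal, A_44_P1147993, stood at 9.66, 9.51, 9.33 and 9.54 on replicates 1 to 4, a mean of 9.51 ± 0.14 (SD, n = 4). Replicate 3 was the lowest and replicate 1 the highest, within 0.33 log2 units of each other, and the SD was 0.08 without replicate 3. The SD was 0.13 with the mean of all probes of the gene, and some other processing widened it. It was 0.235 with quantile normalization and 0.27 after normexp background correction with quantile normalization. It was also 0.27 after subtraction of the median deviation of neighbouring spots, and 0.50 without scaling of the arrays. Probes A_44_P1086385 and A_44_P1159711 averaged 9.05 ± 0.10 and 8.05 ± 0.13 (SD, n = 4 each), and on both of them replicate 3 was again the lowest and replicate 1 the highest. The fourth probe, A_64_P096381, stood at 4.42, 5.00, 4.66 and 5.23, with replicate 1 the lowest.

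Hspa1a, the classical heat-inducible HSP70, had 2 probes, and neither was well above background on any array. Probe A_43_P15711 gave processed signals of 3.66, 3.35, 3.82 and 3.87 intensity units on replicates 1 to 4, each 0.997 times the error the scanner software gave for it. Probe A_44_P109342 gave 3.54, 7.67, 3.93 and 4.74 units. The lowest signals that carried the flag on these arrays lay between 13.6 and 17.3 units, so both probes were below any flagged spot. At the looser flag for a positive and significant signal, A_44_P109342 passed on replicates 2, 3 and 4 and A_43_P15711 on none. Values this near the floor have only an upper bound and no order. The neighbouring gene Hspa1b, whose transcript is nearly identical to that of Hspa1a, was matched by no probe.

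Hsph1, which encodes the nucleotide exchange factor HSP105, had 1 probe that was not well above background on any array. Its processed signals were 9.92, 9.82, 5.68 and 8.73 intensity units on replicates 1 to 4, which is 1.55 to 2.99 times their error. All 4 passed the looser flag. A signal was therefore registered on every array, at a height at which its size is not resolved. Its promoter carries the 3-unit element printed above, as does that of Hspa8.

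Dnaja1, a J-domain partner of HSC70, was well above background on all 4 arrays through its single probe. Its levels on replicates 1 to 4 were 1.41, 1.64, 0.78 and 1.15, a mean of 1.25 ± 0.37 (SD, n = 4). Replicate 3 was the lowest. The SD was above the median of 0.23 over the 6418 genes well above background, whose lower and upper deciles were 0.10 and 0.43. It was 0.24 without replicate 3 and 0.18 after normexp background correction with quantile normalization. After subtraction of the median deviation of neighbouring spots it was 0.42, and without scaling of the arrays 0.70.

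The cytosolic HSP90 genes were both present, and the size of their spread depended on the probe. Hsp90aa1, the isoform that rises with stress, had levels of 6.69, 7.57, 7.43 and 7.36 at probe A_44_P261874, a mean of 7.26 ± 0.39 (SD, n = 4). Replicate 1 was the lowest there. At its second probe, A_44_P1086375, the levels were 6.28, 6.13, 5.89 and 6.06, a mean of 6.09 ± 0.16 (SD, n = 4), with replicate 1 the highest. The SD of the first probe fell to 0.10 without replicate 1.

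Hsp90ab1, the constitutive isoform, stood at 6.84, 8.31, 8.37 and 8.39 on replicates 1 to 4 at probe A_44_P287194, a mean of 7.97 ± 0.76 (SD, n = 4). Replicate 1 lay far below the other arrays, so the mean describes no array. Without replicate 1 it was 8.35 with an SD of 0.04. Replicate 1 was also the lowest before scaling, with 4773 intensity units on replicate 1 and 7751 to 10367 on the others, although replicate 1 was the brightest array. The second probe, A_64_P140020, stood at 6.34, 6.74, 6.54 and 6.58, a mean of 6.55 ± 0.16 (SD, n = 4), with replicate 1 again the lowest. Around the A_44_P287194 spot the other spots, within 5 rows and 5 columns, deviated on replicate 1 by a median of -0.08 from the median of the other arrays, against -1.52 for the spot itself.

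Where a gene had several probes above background, they disagreed on replicate 1 more often than on the others. For each pair of probes of 1 gene, the log2 difference was taken on every array, which cancels the scale of the array. Hspa8, Hsp90aa1, Hsp90ab1, Hspd1, Hspe1 and Hsf1 gave 13 such pairs, which share probes and are not independent, and replicate 1 lay farthest from the mean difference in 11 of them. Over all 1589 such pairs on the arrays, from 983 genes, replicate 1 was farthest in 35.7% and replicate 4 in 34.2%, against 16.2% for replicate 2 and 13.8% for replicate 3. The difference between the Hsp90ab1 probes ranged over 1.33 log2 units, and that between the Hsp90aa1 probes over 1.14. The 3 Hspa8 probes with the highest signals had differences that ranged over at most 0.10. This comparison of probes was chosen after the values were seen.

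**Figure D3:**
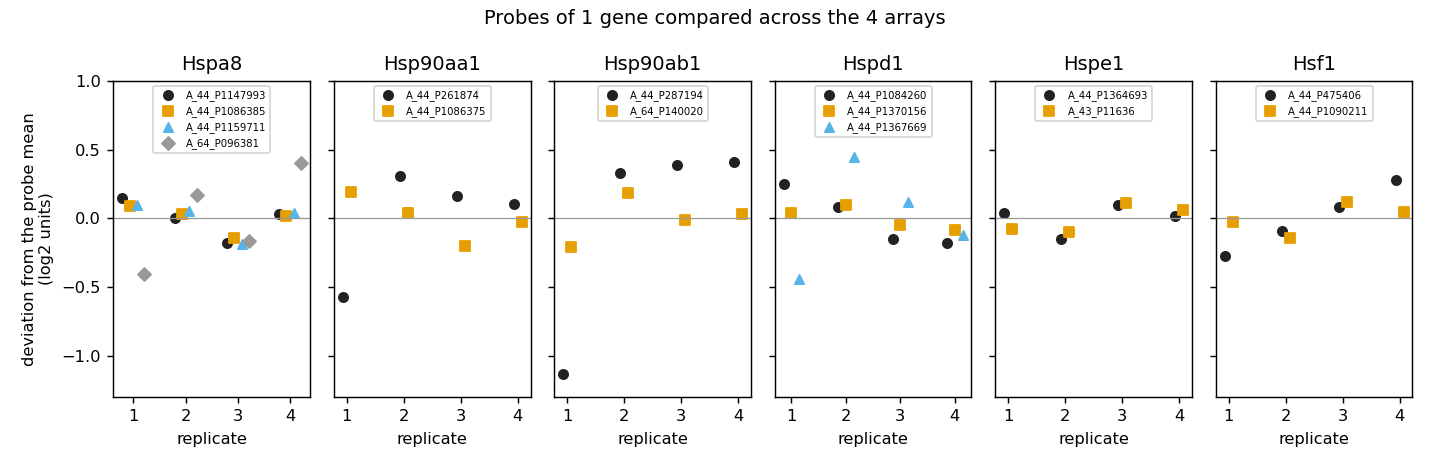
Deviation of each probe from its own mean over the 4 arrays, in log2 units, for the 6 genes with more than 1 probe well above background; each colour is a probe. On replicate 1 the Hsp90ab1 probe A_44_P287194 lies at -1.13 and the Hsp90aa1 probe A_44_P261874 at -0.57, apart from the second probe of the same gene.

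The mitochondrial chaperonin genes were measured most finely, since 3 of their 5 probes were printed 10 times per array. Hspd1, which encodes HSP60, stood at 5.93, 5.76, 5.53 and 5.49 on replicates 1 to 4 at probe A_44_P1084260, a mean of 5.68 ± 0.20 (SD, n = 4). Over its repeat spots on 1 array the SD was 0.04 to 0.09, so the difference between arrays was larger than the spread within them. The second Hspd1 probe, A_44_P1370156, averaged 3.27 ± 0.08 and the third, A_44_P1367669, averaged 2.84 ± 0.37 (SD, n = 4 each). The third was the only one of these on which replicate 1 was the lowest.

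Hspe1, which encodes HSP10, stood at 7.83, 7.65, 7.89 and 7.81 at probe A_44_P1364693, a mean of 7.80 ± 0.10 (SD, n = 4), and at 7.51, 7.49, 7.70 and 7.65 at A_43_P11636, a mean of 7.59 ± 0.10 (SD, n = 4). On both probes replicate 2 was the lowest and replicate 3 the highest. Its SD was near the 10th percentile of all genes above background, and the SD of A_44_P1364693 was 0.04 without replicate 2. A single repeat spot of A_44_P1364693 on replicate 2 read 1554 intensity units, against 5861 to 6975 for the other 9 spots. That spot carried the scanner software's outlier flag and was left out, and the 41 spots around it had a median deviation of -1.64 log2 units on the same array. For the rest of the 228 spot readings of these genes the median of the neighbours lay between -0.38 and 0.41.

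**Figure D4:**
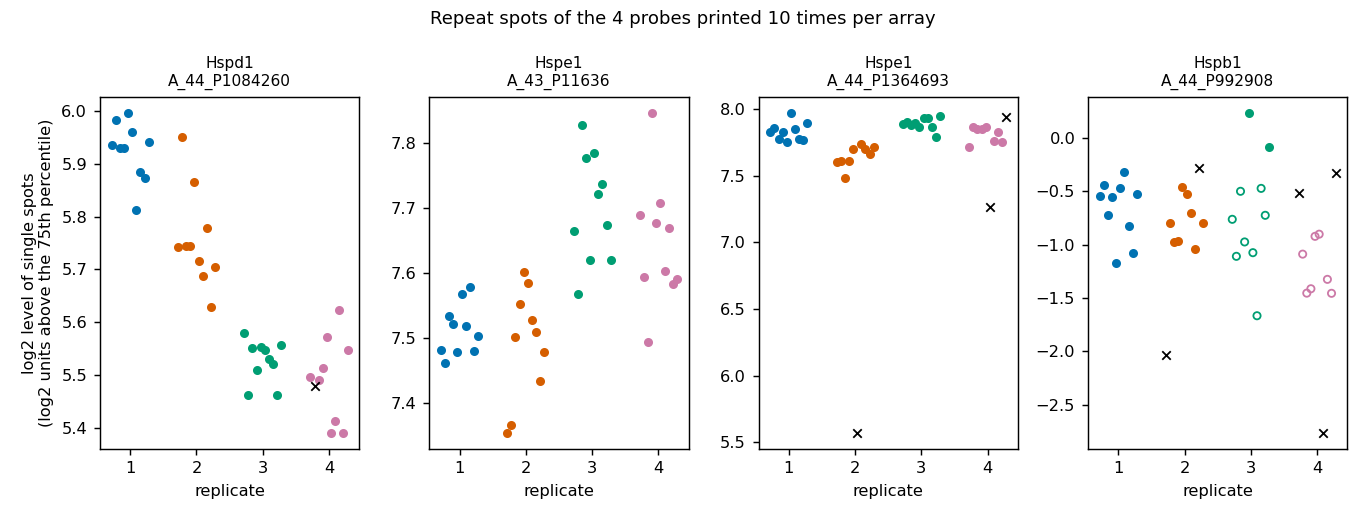
Log2 level of each single spot for the 4 probes printed 10 times per array, by replicate; filled points are well above background, open points are not, and crosses are spots left out for an outlier flag. Hspd1 is higher on replicates 1 and 2 than on replicates 3 and 4, and 1 Hspe1 spot on replicate 2 lies far below the other 9.

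Hspd1 and Hspe1 share the element shown above, and their probes with the highest signals did not rank the arrays in the same order. The log2 difference Hspd1 minus Hspe1 lay 0.21 and 0.23 above its mean on replicates 1 and 2, and -0.25 and -0.20 from it on replicates 3 and 4, an SD of 0.26. Over the 21 pairs among the 7 genes above background the SD of such a difference had a median of 0.44. It was lowest for Hspa8 and Hspd1, at 0.15, and 0.04 without replicate 4. It was highest for Hsp90ab1 and Dnaja1, at 0.95, and 0.46 without replicate 1. Hspa8 and its J-domain partner Dnaja1 had an SD of 0.29, which was 0.15 without replicate 2, and the HSP90 genes had 0.39 between them, which was 0.14 without replicate 1. These SDs and the median of 0.44 use 1 probe per gene, including the Hsp90aa1 and Hsp90ab1 probes that lay low on replicate 1. With the mean of all probes of a gene the order changed. Hspe1 and Hsf1 then had the lowest SD, at 0.10, against 0.19 for Hspa8 and Hspd1. Hspd1 and Hspe1 had 0.23, and Hsp90ab1 and Dnaja1 again had the highest, at 0.64. Probes of 1 gene also differed over the arrays. The SD of their difference had a median of 0.21 over all genes and 0.35 over the 13 pairs of these genes. It was 0.15, 0.35 and 0.48 for the Hspd1 pairs and 0.07 for the Hspe1 pair. Whether the transcripts of Hspd1 and Hspe1 differ beyond such differences between probes was not tested. With 4 arrays no correlation was computed.

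Hspb1, the small heat shock protein HSP25, which holds unfolded proteins without ATP, lay at the edge of detection. Its probe was printed 10 times, and 10, 9, 2 and 1 of these spots were well above background on replicates 1 to 4. These counts include outlier spots, of which there were 2 on replicate 2 and 3 on replicate 4. The only spot well above background on replicate 4 was an outlier spot and was left out. The geometric mean signals were 26.2, 19.0, 14.3 and 10.6 intensity units before scaling. The scaled levels were -0.67, -0.78, -0.71 and -1.22, so they did not fall steadily over the replicates. A share of at least 0.5 of the spots not left out was required, which replicates 1 and 2 reached and replicates 3 and 4 did not. All 4 arrays passed the looser flag. The SD over repeat spots was 0.21 to 0.54, wider than the 0.04 to 0.10 of the Hspd1 and Hspe1 probes printed as often.

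Hsf1, the factor that reads the elements, was well above background on all 4 arrays with both of its probes. Probe A_44_P475406 stood at 3.52, 3.70, 3.87 and 4.07 on replicates 1 to 4, a mean of 3.79 ± 0.24 (SD, n = 4), and probe A_44_P1090211 at 1.56, 1.44, 1.70 and 1.62, a mean of 1.58 ± 0.11 (SD, n = 4). Replicate 4 was the highest on the first and replicate 3 on the second. HSF1 is held inactive by chaperones and activated as a protein, so its transcript level does not show its activity. The related factor Hsf2 stood at 1.03 ± 0.26 (SD, n = 4), Hsbp1, whose product binds HSF1, stood at 4.40 ± 0.19 (SD, n = 4), and the lens factor Hsf4 passed on no array.

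The mean of the 7 genes above background deviated from its mean over arrays by -0.20, 0.12, -0.01 and 0.08 log2 units on replicates 1 to 4. On replicate 1, 4 of the 7 genes lay above their own mean, and the negative value rests on the Hsp90ab1 probe A_44_P287194 and the Hsp90aa1 probe A_44_P261874, at -1.13 and -0.57. The second probes of these genes deviated there by -0.21 and 0.19. The mean on replicate 1 turned to 0.28 when the arrays were not scaled, since that array was the brightest. It stayed negative with quantile normalization, at -0.12, with the mean of all probes of a gene, at -0.13, and with the local trend removed, at -0.09.

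The chaperones that work beside these genes were mostly present. Of 71 other chaperone genes measured, 55 (77.5%) passed on every array, against 38.7% of all genes with a symbol. These lists, too, were chosen with earlier results of these data known. All 12 HSP90 co-chaperones passed, among them Cdc37, which brings kinases to HSP90, at 7.38 ± 0.10, Stip1, which bridges HSP70 and HSP90, at 2.43 ± 0.42, and Ahsa1, which speeds the HSP90 ATPase, at 5.69 ± 0.16 (SD, n = 4 each). All 9 mitochondrial genes passed, with Hspa9, the HSP70 of mitochondria, at 4.67 ± 0.25 and Trap1, the HSP90 of mitochondria, at 6.62 ± 0.11 (SD, n = 4 each). Of 12 genes of the cytosolic chaperonin TRiC and of prefoldin 11 passed, and Pfdn2 did on no array.

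Of 9 exchange and adaptor factors of HSP70, 8 passed and Bag4 did not. Bag3, which links HSP70 to autophagy and is itself heat-inducible, stood at 4.10 ± 0.10 (SD, n = 4), and Stub1, a ubiquitin ligase for chaperone clients, at 7.15 ± 0.17 (SD, n = 4). Of 11 J-domain genes 8 passed, Dnajb9 passed on 2 arrays, and Dnajb4 and Dnajb5 passed on none. Dnajb1, the heat-inducible J-domain gene, was matched by no probe.

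Among the relatives of HSP70 and HSP110, 3 of 7 passed: Hspa4, a constitutive HSP110, at 2.44 ± 0.25, Hspa13 at 1.99 ± 0.29 and Hspa14 at 3.84 ± 0.16 (SD, n = 4 each). Hspa2, which is abundant in testis, passed on 2 arrays and Hspa4l on 1, while Hspa1l and Hspa12a passed on none. Of 8 other small heat shock proteins 2 passed, Cryab at 2.33 ± 0.12 and Hspb2 at 1.63 ± 0.14 (SD, n = 4 each). Hspb6 passed on 3 arrays, and Hspb3, Hspb7, Hspb8, Hspb9 and Cryaa on none. Probes of this family can bind transcripts of near-identical relatives and of processed pseudogenes, so the levels are uncertain in that respect.

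**Figure D5:**
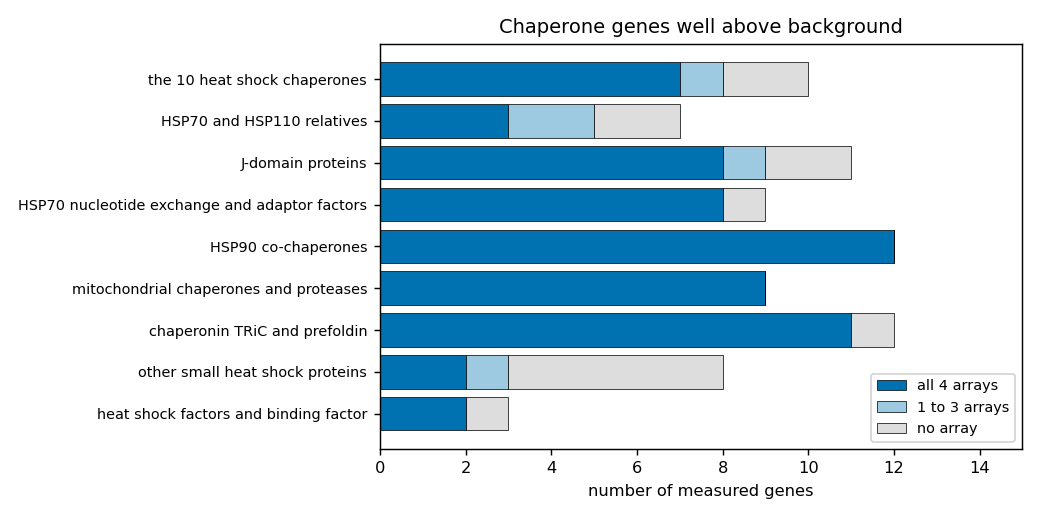
Number of measured genes in each chaperone list that were well above background on all 4 arrays (dark blue), on 1 to 3 arrays (light blue) or on no array (grey). All 12 HSP90 co-chaperones and all 9 mitochondrial genes are dark, against 2 of 8 other small heat shock proteins.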

How the data were processed

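Cy3-labelled RNA of the 4 NR8383 replicates was hybridised to 1 one-colour Agilent array each. The deposited values are processed spot intensities on a linear scale. Feature Extraction 11.0.1.1 from Agilent produced them, per the file headers, and the submitters' processing notes name the same tool. Signals were not scaled between arrays. The deposited flags mark spots well above background, outliers and saturation.

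Control spots (4259 per array) and outlier spots (491 to 828 per array) were left out. The log2 signals of a probe's repeat spots were averaged. Of 45598 probes, 21109 matched 1 symbol of GRCr8 and 24489 none. A probe passed on an array when a share of at least 0.5 of its spots did. Genes are represented by whichever probe had the highest mean level, scaled by the 75th percentile over probes. With 1 group no test between groups was possible. The number of arrays limits precision. Genes and lists were chosen with earlier results of these data known. Named genes were all 10 members, the listed chaperones that did not pass, and others chosen for their role.

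Alternatives were a looser flag, 3 of 4 arrays, all probes, other scalings, normexp (offset 50) from limma 3.58.1 in R 4.3.3, the mean of all probes, subtraction of the median deviation of spots within 5 rows and columns, inclusion of dim probes, and omission of each replicate in turn. The rest ran in Python 3.11.15 (numpy 2.4.6, pandas 2.3.3). The scaling and the SD over arrays were tested on simulated arrays with known values and no repeat spots. The background flags were set in advance there, so their recovery was fixed, and the other steps were not simulated.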

Additional observations from a re-analysis of the deposited data

Results flagged for a closer look

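Of 16 probes of these genes that were well above background on all 4 arrays, 1 had an array apart from the other 3 by Dixon's criterion at the 95% level, where chance gives about 1 in 20. It was the Hsp90ab1 probe A_44_P287194, with a ratio of 0.950, at 6.84 on replicate 1 and 8.31 to 8.39 on replicates 2 to 4. The second Hsp90ab1 probe was not apart, with a ratio of 0.501.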

How the results depend on the processing

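The count of 7 heat shock genes above background was also 7 when 3 of 4 arrays sufficed, when every probe was required to pass and without any 1 replicate, and it was 9 with the looser flag, which added Hspb1 and Hsph1. The count of 55 other chaperones lay between 52 and 60 and that of all genes between 5511 and 8441 over the same alternatives. Other reference points shift every level: the 75th percentile over probes above background lay 4.46 log2 units higher. Of 70 recomputed SDs of the 7 genes 17 differed by more than 1.5 times, and of 126 recomputed SDs of differences between genes 28 did. The SD of Hsp90ab1 was 0.76, and 0.45 with the mean of its probes; leaving out each replicate gave 0.04 to 0.89. With 4 arrays and no untreated cells, spreads are rough and no response can be measured. The arrays share 1 slide, so a slide block could not be fitted. No paired analysis was possible because there is only 1 group.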
